A study of Mus musculus with 2 samples.

Results

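Mir126a and Mir126b are miRNA genes that face each other on opposite strands of 1 intron of Egfl7, a gene that encodes a protein secreted by endothelial cells. Both were taken by their GENCODE M21 symbols, and they are 2 of the 2202 miRNA genes counted. Short RNAs of gastrocnemius, a calf muscle, were sequenced. All material came from 1 group: adult, female B6CASTF1/J mice, a first-generation cross, at an age of 18 to 20 months, with no treatment named. It gave 2 libraries, numbered as biological replicates 1 and 2. Both carry the same donor entry and separate tissue sample entries, so differences between them may be technical.

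The gene counts on the sense strand summed to 865419 in replicate 1 and 2177048 in replicate 2, from 6888732 and 12001270 reads. Multimapping reads, 80.7% and 71.0% of all reads, entered no gene count. CPM, counts per 1000000, is the sense count of a gene scaled to the summed sense gene counts of its library. All intervals are exact Clopper-Pearson at 95% unless another is named, and they cover counting error only.

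A miRNA gene is transcribed as a hairpin, from which Dicer cuts a duplex of short RNAs, named 5p and 3p after the arm of the hairpin. The loaded strand guides Argonaute to messenger RNAs that match its seed, bases 2 to 8. Mir126a is the best known miRNA of endothelial cells. Its 3p strand is known to repress Spred1 and Pik3r2, inhibitors of growth factor signalling, and to keep vessels intact. It is also present in platelets and some blood progenitors. Mir126b is annotated as a hairpin on the other strand of the same bases, and it would need a transcript that runs against Egfl7.

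The sequences of both genes are shown because all of Mir126b lies within Mir126a, and over those shared bases only the strand tells them apart. Both members matched the RefSeq sequence table of GRCm38.p6, and its hairpins were identical to those of GENCODE M21. In the mature sequences, written 5′ to 3′, capitals mark the seed.
miR-126a-3p: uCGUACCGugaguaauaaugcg
miR-126b-5p: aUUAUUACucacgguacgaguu
miR-126b-3p: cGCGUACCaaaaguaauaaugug
In the hairpins, capitals mark the mature sequences printed above. miR-126a-5p was not compared here.
Mir126a hairpin: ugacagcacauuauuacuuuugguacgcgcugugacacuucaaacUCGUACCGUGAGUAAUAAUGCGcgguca
Mir126b hairpin: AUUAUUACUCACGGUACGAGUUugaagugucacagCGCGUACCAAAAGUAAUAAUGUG

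Mir126a (ENSMUSG00000065540.1) lies on mm10 chromosome 2 from 26591357 to 26591429 on the plus strand, the strand of Egfl7. Mir126b (ENSMUSG00000105799.1) lies from 26591363 to 26591420 on the minus strand. Its 58 bases lie wholly inside the 73 bases of Mir126a, and its hairpin is the exact reverse complement of that stretch. Mir126a extends 6 bases past it on one side and 9 on the other. Of 9 Egfl7 transcripts that span the locus, 8 have it in an intron and 1, a retained-intron transcript, has it in an exon. In the transcript Egfl7-201 it lies between exons 7 and 8, 293 bases after exon 7 and 234 bases before exon 8. Gm20532, a longer gene on the plus strand, also covers it. No other annotated gene on the minus strand covers it, and the 3′ end of Agpat2, which encodes an enzyme of phospholipid synthesis and runs toward the locus on the minus strand, lies 1627 bases past Mir126a.

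miR-126a-3p and miR-126b-5p cover 19 bases in common on opposite strands and are exact complements over those bases. miR-126a-3p and miR-126b-3p come from opposite strands and opposite sides of the hairpin, yet 17 of 22 aligned bases are identical. Their seeds, CGUACCG and GCGUACC, hold the same letters CGUACC, shifted by 1 base. Among the 1738 mature sequences of the table, none of another gene has any of these 3 seeds at its own bases 2 to 8. The longest exact stretch that the Mir126a hairpin shares with any of the other 2200 hairpins, on either strand, is 12 bases, and for miR-126a-3p alone it is 10 bases. A full-length read of miR-126a-3p therefore matches no other annotated miRNA hairpin exactly. Matches elsewhere in the genome were not searched.

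**Figure D1:**
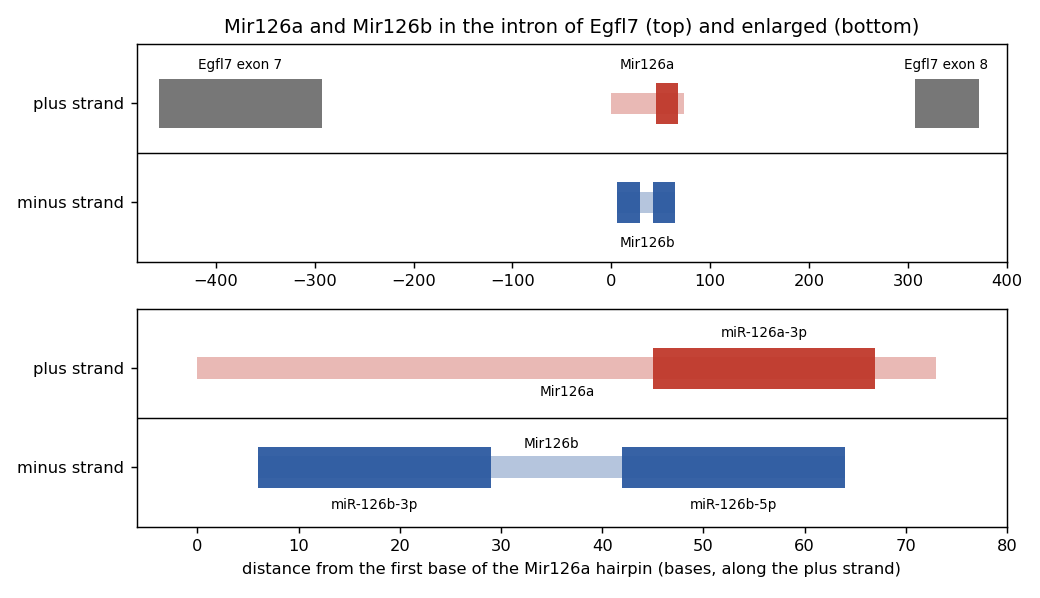
Positions of both hairpins (pale) and of the mature sequences in the table (dark) by strand, with exons 7 and 8 of the transcript Egfl7-201 in grey; the horizontal axis is the distance in bases from the first base of Mir126a. The 58 bases of Mir126b lie within the 73 bases of Mir126a, and miR-126a-3p lies opposite miR-126b-5p.

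Every read that the strand-specific counts placed on the locus came from the strand of Mir126a. In replicate 1, Mir126a had 40916 sense and 0 antisense reads. In replicate 2 it had 115313 sense and 0 antisense reads. Mir126b had 0 sense reads in both libraries, and its antisense reads were 40916 in replicate 1 and 115310 in replicate 2. The antisense count of Mir126b thus equalled the sense count of Mir126a, less 3 reads in replicate 2, the number that the unstranded column gave to Mir126a alone.

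The sense counts of both genes add to 156229 over both libraries, and Mir126b held 0 of them. A set limit of 3 counts for a count of 0 allows a share of up to 0.00192%. The exact interval is wider and reaches 0.00236%. By library, the limit of 3 counts is 0.00733% of 40916 and 0.00260% of 115313. Against that limit of 3 counts per library, Mir126a was at least 13639-fold higher than Mir126b in replicate 1 and at least 38438-fold higher in replicate 2. On the CPM scale, the same limit for Mir126b is 3.47 CPM in replicate 1 and 1.38 CPM in replicate 2. The exact intervals reach 4.26 and 1.69 CPM. Mir126b shared its 0 with many genes, as 1746 and 1630 of the 2202 genes had no sense read. The counts do not separate the arms, so how many reads were 3p and how many 5p was not tested.

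The unstranded column, which ignores strand, almost loses the pair. A read over both genes is ambiguous there and goes to neither. Mir126a kept 0 reads of 40916 in replicate 1 and 3 of 115313 in replicate 2, and Mir126b kept 0 in both. The loss was 100% and 99.997% of the reads of Mir126a. The unstranded ambiguous tally held 221369 and 450527 reads, and Mir126a supplied 18.5% of it in replicate 1 and 25.6% in replicate 2. By unstranded counts Mir126a would stand at rank 429 and rank 386, while its sense counts put it at rank 5 in each library.

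**Figure D2:**
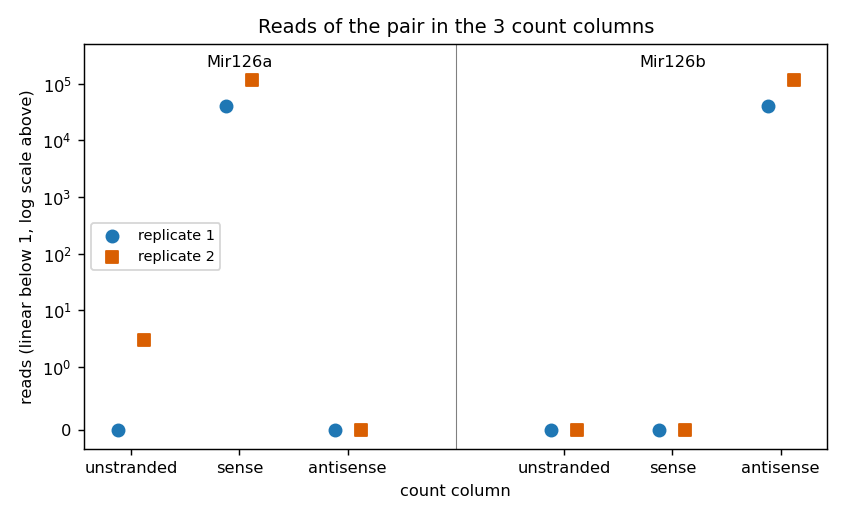
Reads of Mir126a and Mir126b in the unstranded, sense and antisense columns, 1 point for each library, on an axis that is linear below 1 and logarithmic above. The sense values of Mir126a (40916 and 115313) reappear as the antisense values of Mir126b (40916 and 115310), and the unstranded values are 0 or 3.

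The Mir126 genes are 1 of 32 sets of miRNA genes that overlap by at least 1 base on opposite strands, and 27 of these sets had sense reads. In 18 of the 27 sets, Mir126 included, the lower gene had 0 sense reads, and in 9 it had at least 1. By summed sense reads Mir126a followed Mir378a, a miRNA of the Ppargc1b gene, whose partner Gm25301 had 0 reads beside 426867. The next sets by reads were Mir30e with 1 of 26903 reads on Mir30f, Mir191 with 0 of 26898 on Gm24083, and Mirlet7e with 0 of 13387 on Gm25927. One-sided reads were therefore not peculiar to the Mir126 locus.

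Some other sets carried more reads on the lower gene, and these were chosen after their values were seen. Mir3107 had 180 of the 11310 reads of the Mir486 set, 1.59% (interval 1.37 to 1.84). Multimapping reads entered neither count, and whether Mir486 and Mir3107 share mature sequences was not tested. Their share may therefore not compare directly with that of the Mir126 set. Mir3065 had 3 of the 2173 reads of the Mir338 set, 0.138% (0.0285 to 0.403). Higher shares occurred in sets with fewer reads. Mir3074-1 had 11 of the 157 reads of the Mir24-1 set, 7.01% (3.55 to 12.2). Mir219c had 2 of the 15 reads of the Mir219a-1 set, 13.3% (1.66 to 40.5). Mir24-1 shares its mature sequence with Mir24-2 and loses those reads as multimapping. Whether Mir219a-1 and Mir219a-2 share mature sequences was not tested. The shares of the Mir24-1 and Mir219a-1 sets may therefore not compare directly with that of the Mir126 set either. The limit of 3 counts for Mir126b, 0.00192% over both libraries, lies below the intervals of the Mir486 and Mir338 sets and within that of the Mir30e set, 9.41e-05 to 0.0207%.

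**Figure D3:**
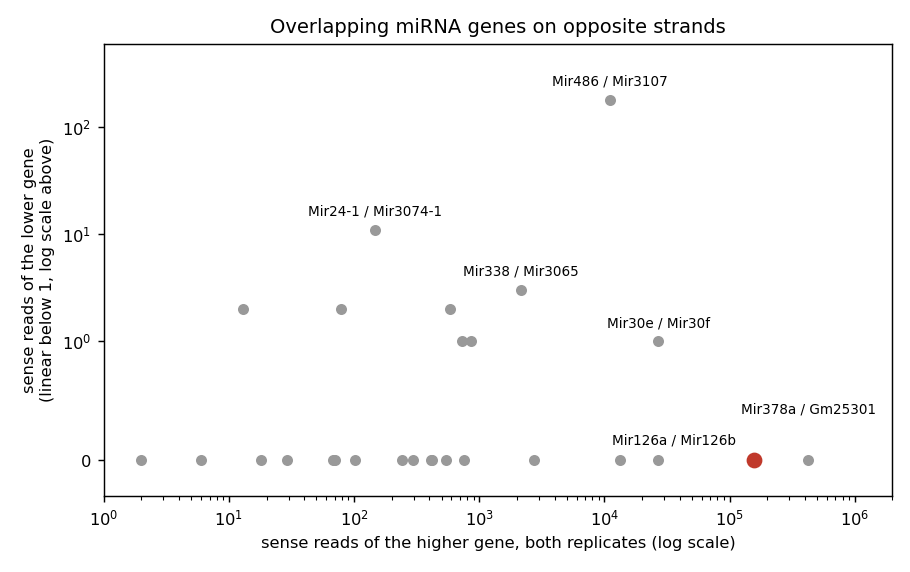
Sense reads of the higher gene (horizontal, log scale) and of the lower gene (vertical, linear below 1 and logarithmic above) for the 27 opposite-strand sets with reads, summed over both libraries. The Mir126 set, in red, has 156229 reads on Mir126a and 0 on Mir126b, while Mir486 has 180 reads on its partner.

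Reads on the wrong strand were rare at miRNA genes in general. Among genes with at least 100 sense reads and no miRNA gene facing them, antisense reads made up 0.00125% of sense reads in replicate 1 (8 of 639833, interval 0.000540 to 0.00246) and 0.00163% in replicate 2 (28 of 1720560, 0.00108 to 0.00235). No antisense read was seen at 113 of 118 such genes in replicate 1 and 167 of 174 in replicate 2. At those rates Mir126a would carry 0.512 and 1.88 antisense reads, so its count of 0 cannot be told apart from the general rate at this depth.

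By counts without multimapping reads, Mir126a was one of the most counted miRNAs of the muscle. Its level differed little between the libraries. It stood at 47279 CPM in replicate 1 (interval 46833 to 47728) and 52968 CPM in replicate 2 (52671 to 53266). That is 4.73% and 5.30% of gene counts, or 5.01% ± 0.402 (SD, n = 2). Of all reads, multimapping and unmapped ones included, it made up 0.594% and 0.961%. In bulk muscle, fewer cells of a type and less RNA per cell cannot be told apart, so these values are no measure of endothelial cell number.

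By mean CPM Mir126a ranked 7 among the 2202 genes, at 50123 ± 4023 (SD, n = 2). Genes with copies, such as those of Mir1a and Mir133a, lose shared reads as multimapping. The ranks given here therefore do not place Mir126a against the full level of such genes. By the counts of each library Mir126a ranked 5 in both. The genes above it were Mir378a, Mir143, Mirlet7i and Mirlet7g in replicate 1, and Mir378a, Mir22, Mir206 and Mirlet7g in replicate 2. Counts per base of the annotated hairpin, an alternative chosen after the data were seen, put it at rank 4 in both. The genes next above it by mean CPM were 2 let-7 genes and Mir143. Mirlet7i, of the let-7 family that slows growth, had 57323 and 52072 CPM. Mirlet7g, of the same family, had 55843 and 53355 CPM. Mir143, a miRNA of smooth muscle, had 67550 and 35143 CPM. The ranges of Mirlet7i and Mir143, like those of Mir22 and Mir206, overlap that of Mir126a, so their order by mean does not exceed the spread between the libraries. Mirlet7g lay above Mir126a in both libraries, although Mir126a had 0.993 times its reads in replicate 2.

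The genes next below did not reach the range of Mir126a. Mir23a had 40042 and 40739 CPM, Mir23b had 39754 and 36369 CPM, and Mir99a had 39241 and 29826 CPM. Mir23a and Mir23b head clusters that are known in endothelial cells and other tissues, and Mir99a is a miRNA of an intron cluster with let-7. No such order could be given around Mir126b, which is tied at 0 with other genes.

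Ratios within a library do not depend on its total. Mir126a had 1.18 times the reads of Mir23a in replicate 1 and 1.30 times in replicate 2. Against Mir143 it had 0.700 times the reads in replicate 1 and 1.51 times in replicate 2, so the order of these vessel miRNAs was opposite in the libraries. Against Mir206, a miRNA of skeletal muscle, it had 1.17 and 0.513 times the reads.

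Between the libraries Mir126a differed little: the CPM of replicate 2 was 1.12 times that of replicate 1 (interval 1.11 to 1.13), or 0.16 as a log2 ratio. The exact conditional binomial test, which compares these libraries and not animals or conditions, gave an adjusted p of 3.19e-87 with Benjamini-Hochberg adjustment over 305 tested genes. The difference thus exceeds counting error, but Mir126a was not called, since a call also needed a ratio of at least 2. Of the tested genes 33.8% passed both thresholds, with 26.9% in the direction of replicate 2 and 6.89% in that of replicate 1, and 67.9% had an adjusted p under 0.05. Of the 305 genes, 44 had a ratio nearer to 1 than Mir126a. Mir126b had 0 counts in both libraries and was not tested.

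The direction of this small difference depends on the scaling. The median tested gene had a log2 ratio of 0.43, and Mir126a lay 0.27 below it (-0.27). TMM factors, which lower each log2 ratio by 0.28 (-0.28), placed Mir126a at -0.12, while with the size factors of DESeq2, a shift of -0.42, it lay at -0.25. By either it was lower in replicate 2, and not called. Of the called genes 79.6% were higher in replicate 2 with library totals, 67.3% with TMM and 59.8% with DESeq2 size factors.

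**Figure D4:**
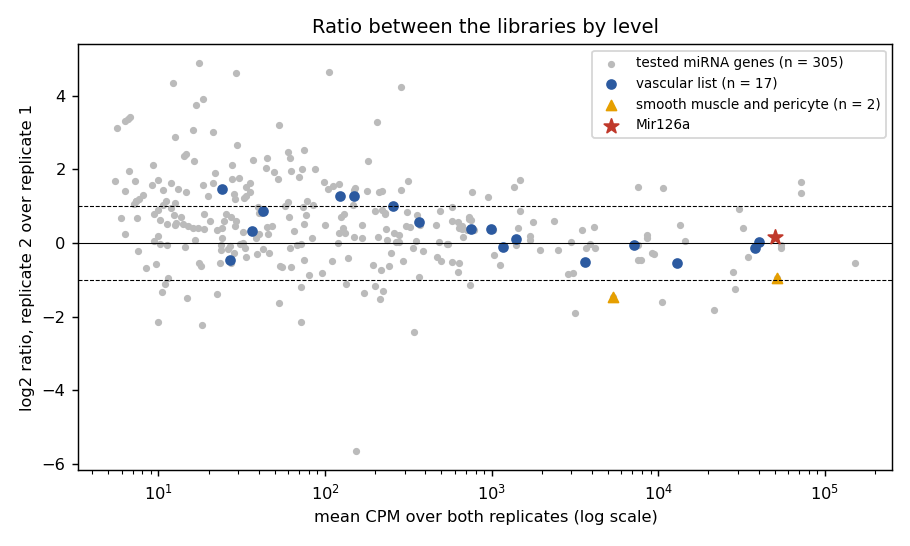
Log2 ratio of replicate 2 over replicate 1 (vertical, library totals) against mean CPM (horizontal, log scale) for the 305 tested genes, with the 17 vascular list genes in blue and the ratio threshold of 2 as dashed lines. Mir126a, the red star, lies at 0.16, and the smooth muscle genes Mir143 and Mir145a lie below it at -0.94 and -1.47.

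With only 2 libraries, likeness of pattern is the closeness of the log2 ratio. Among the other 55 genes with a mean of at least 1000 CPM, Mir744 came nearest to Mir126a, with 8172 and 9009 CPM and a difference in log2 ratio of 0.02. Mir193b (1592 and 1827 CPM, difference 0.03), Mir92-1 (1347 and 1451 CPM, 0.06) and Mir30e (7894 and 9219 CPM, 0.06) followed. Each likeness rests on 1 ratio over 2 libraries.

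By these counts, other miRNAs reported in endothelial cells or vessel growth were all lower than Mir126a in both libraries. Most were not called between the libraries. The list holds 19 genes, of which 17 passed the filter of a mean of at least 10 counts. Calls toward replicate 2 were made for 3 of these 17, beside 26.9% of all tested genes, and calls toward replicate 1 for 0, beside 6.89%. The other 14 were not called. The median over the list, 0.32 as a log2 ratio over the 17 tested members, stood beside 0.43 for all tested genes. All 19 genes summed to 11.2% of gene counts in replicate 1 and 10.3% in replicate 2, so Mir126a alone had 0.424 and 0.512 times as many reads as all of them. Mir24-1, Mir24-2, Mir218-1, Mir218-2 and Mir92-1 share mature sequences with another gene and lose those reads as multimapping. The sum of the list is therefore a lower bound, and these ratios of Mir126a to it may be too high.

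Of the 13 genes reported to promote vessel growth, Mir23a and Mir23b were the highest, as given above. Mir27b, from the Mir23b cluster, followed with 7351 and 7050 CPM. Mir10a, which lies in a Hox cluster, had 4274 and 3002 CPM, and Mir130a, which represses anti-angiogenic homeobox genes, had 1211 and 1129 CPM. None of these 5 genes was called. The genes at under 1000 CPM named here and in the next paragraphs were chosen after their values were seen. Mir27a, from the Mir23a cluster, had 862 and 1118 CPM, although its neighbour Mir23a had 40042 and 40739. Mir24-1 and Mir24-2 share their mature sequence, so reads of it map to both places and both genes' values are lower bounds. Mir24-1 had 30.0 and 55.1 CPM, and Mir24-2 had 87.8 and 212 CPM. Both also face an annotated miRNA gene, as Mir126a does.

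Of the 6 genes reported to limit vessel growth, Mir100 was the highest with 15317 and 10436 CPM, followed by Mir92-1 (Mir92a-1 in current names) of the Mir17 to Mir92 cluster with 1347 and 1451 CPM. Mir92-1 shares its mature 3p sequence with Mir92-2, so its values, and its ratio given above, rest on the reads that map to 1 place and are lower bounds of its level. Mir221 and Mir222, neighbours on the X chromosome that act on the receptor Kit, had 660 and 852 CPM and 71.6 and 173 CPM. The called genes were Mir24-2, Mir222 and the hypoxia miRNA Mir210, at ratios of 2.42, 2.42 and 2.78 toward replicate 2. Mir210 had 11 and 77 reads, and it alone remained called with TMM or DESeq2 size factors.

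Markers of other cells of the vessel wall and of blood did not all keep the ratio of Mir126a. The smooth muscle and pericyte list, Mir143 and Mir145a, held 7.54% of gene counts in replicate 1 and 3.80% in replicate 2, and Mir145a, at 7854 and 2842 CPM, was called higher in replicate 1 (ratio 0.362, interval 0.350 to 0.375). The list of leukocytes and platelets, 6 genes, held 0.444% and 0.493%. It was led by Mir155 with 1432 and 2120 CPM and Mir150 with 1663 and 1746 CPM. Mir223, a miRNA of myeloid cells and platelets, had 278 and 123 CPM and was called higher in replicate 1. Mir142, of blood cells in general, had 246 and 96.0 CPM and was called likewise. The other 4 genes of this list were not called: Mir155, Mir150, Mir342 and Mir146, at ratios of 1.48, 1.05, 1.03 and 1.02. Over all tested genes, 6.89% were called higher in replicate 1. The erythroid list, Mir451a and Mir144, held 0.0230% and 0.0316%.

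Mir126a exceeded the summed leukocyte and platelet list 10.6 to 1 in replicate 1 and 10.7 to 1 in replicate 2, and the erythroid list 206 to 1 and 168 to 1. No marker of these lists was at 0 in both libraries. The part of platelets or other blood cells in the level of Mir126a was not tested. The striated muscle list, which checks the labelled tissue, held 4.07% and 10.4%, nearly all of it Mir206 with 40389 and 103232 CPM. Its Mir1a and Mir133a genes have copies, so their counts are lower bounds. Mir206 was called higher in replicate 2, at a ratio of 2.56. The fibroblast list, 4 genes, held 0.0633% and 0.138%, and its members went both ways. Mir214, with 564 and 1335 CPM, was called higher in replicate 2 (ratio 2.37), and Mir199a-2, with 13 reads in each library, was called higher in replicate 1 (ratio 0.398). Mir199b had 50.8 and 41.8 CPM and was not called. Mir199a-1 had 3 and 0 reads and was not tested. Like Mir1a, both Mir199a genes have copies, which makes their counts, and the share of the fibroblast list, lower bounds. Whether Mir199b shares mature sequences with the Mir199a genes was not tested. The epithelium list, 6 genes, held 0.00243% and 0.0141%. Its 4 tested genes were all called higher in replicate 2, beside 26.9% of all tested genes, with a median log2 ratio of 2.52. They had few reads in replicate 1: Mir429 had 1, Mir200b 4, Mir200c 7 and Mir205 9. The other genes of this list, Mir200a and Mir141, were at 0 in replicate 1. With DESeq2 size factors, an alternative added after the data were seen, Mir206 was at a ratio of 1.91 and Mir214 at 1.77, and neither was called. With TMM, Mir206 stayed called at 2.10 and Mir214, at 1.95, did not. The other marker calls named here held under both.

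**Figure D5:**
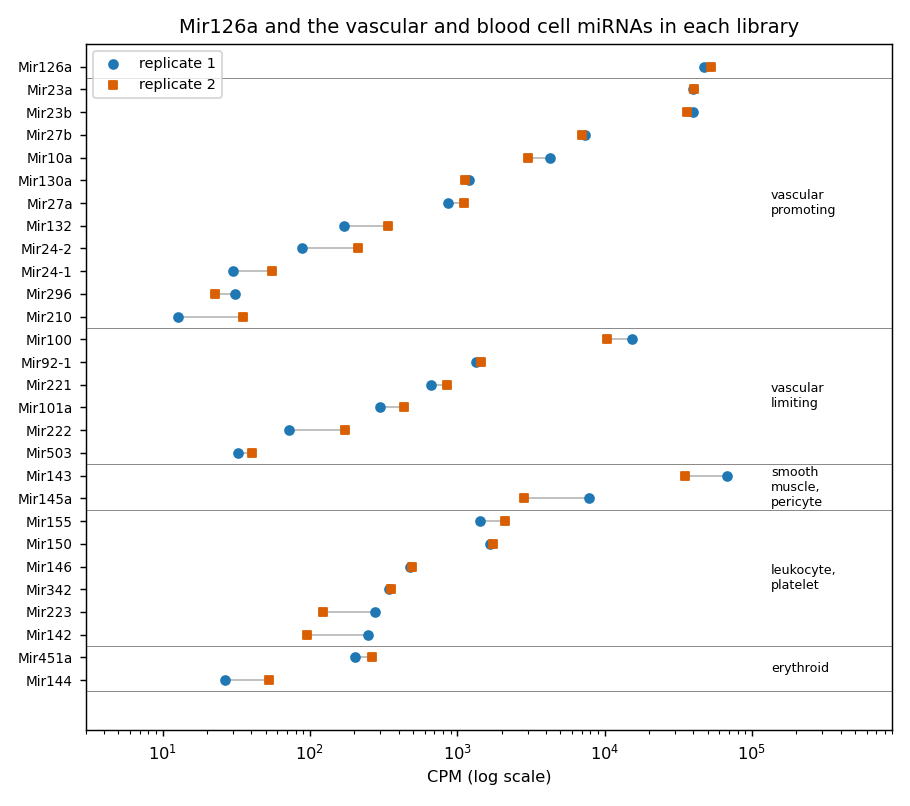
CPM (log scale) of Mir126a and of the tested members of the vascular, smooth muscle and blood cell lists in replicate 1 (circles) and replicate 2 (squares), joined by a line. Mir126a sits at 47279 and 52968 CPM, above every gene shown except Mir143 in replicate 1.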

How the data were processed

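MicroRNA-seq was measured in 2 libraries of 1 group. The deposited files hold raw read counts for each of 2202 miRNA genes in 3 columns, after 4 tallies, on mm10 with GENCODE M21 per the deposited README. The aligner and counting tool: not given in the sources used here. From the values, the columns were taken as unstranded, sense and antisense counts. The unstranded column alone has ambiguous reads. Of the remaining columns, the one with more gene counts was taken as sense. It held 865419 against 221391 in replicate 1 and 2177048 against 450580 in replicate 2.

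Tallies stayed out of library totals. Symbols, positions and hairpins came from GENCODE M21, and mature sequences from RefSeq (GRCm38.p6). CPM used sense counts. The 305 genes whose mean count reached 10 were tested. The test was two-sided, exact and binomial, conditional on the summed count of a gene, and p-values were adjusted by Benjamini-Hochberg. A call needed an adjusted p below 0.05 together with a 2-fold ratio. edgeR's quasi-likelihood test was not used, since there is no second group. A count of 0 was given a limit of 3 counts.

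The members and lists were chosen with earlier results of these data known. Genes named were both members, 3 genes above and 3 below Mir126a by mean CPM, the 4 nearest by log2 ratio above 1000 CPM, the 5 opposite-strand sets with most reads, and list members above 1000 CPM (up to 6 a list); others are said to be chosen later. The Mir92-1 gene was matched to Mir92a-1 by its RefSeq synonym. Alternatives were the unstranded column, other denominators, TMM (edgeR 4.0.16), DESeq2 1.42.0 size factors, other filters and thresholds, and each library left out. Python 3.11.15, NumPy 2.4.6, SciPy 1.17.1, pandas 2.3.3 and R 4.3.3 were used. The sequencing reads were not analysed here.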

Additional observations from a re-analysis of the deposited data

How the results depend on the processing

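The level of Mir126a, 50123 CPM, became 0.869 CPM in the unstranded column, where its reads are ambiguous, 7774 per 1000000 of all reads, and 59109 CPM without Mir378a in the totals. Its log2 ratio of 0.16 turned to -0.12 with TMM and -0.25 with DESeq2 size factors, stayed positive with either other denominator (0.69 for all reads, 0.07 without Mir378a), and was called at the same 0.16 only without the ratio threshold. The unstranded column gave no ratio, since 0 and 3 counts do not pass the filter. Mir126b was at 0 in the unstranded column, where any read over it also lies over Mir126a and is ambiguous. A count of 0 also stays 0 with any denominator and in each library alone. These settings could thus not change the level of Mir126b, and no ratio of it was run under any setting. All pair reads lay on Mir126a in each library, so leaving either out could not change the share. The exchanged antisense column counts the same reads again and is no separate measure. Genes called, 103, became 50 where the mean count had to reach 100 and 207 without a ratio threshold. TMM called 98 genes (66 higher in replicate 2, 67.3%) and DESeq2 size factors called 97 (58, 59.8%), against 79.6% with totals. The called vascular genes, 3, became 1 with TMM and 1 with DESeq2 size factors. The antisense rate, 0.00144%, was 0.000801% at genes with at least 1000 sense reads and 0.00111% at genes with no annotated gene on the other strand. With the set limit of 3 counts, depth limits Mir126b to 3.47 and 1.38 CPM, and 2 libraries limit every statement on spread.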
